A study of Homo sapiens with 19 samples.

Results

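The plasminogen activator system is described here through 5 genes of the 23441 gene symbols in the count table of the study. The genes were listed by symbol, with earlier results of these data known. *PLAU* and *PLAT* encode the urokinase-type and tissue-type plasminogen activators, and *PLAUR* encodes the urokinase receptor uPAR. *SERPINE2* and *SERPINB2* encode the inhibitors protease nexin-1 and PAI-2. All 5 had a row in the table, and all 5 passed the filter on low counts that left 14225 genes for testing.

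The samples were pools of 786-O cells, an established clear cell renal carcinoma (CCRC) line with defective VHL, grown in the same medium with fetal calf serum. All pools were transduced with a lentiviral pRRL vector that also encodes EGFP. The vector was empty in the control cells, carried HIF-1α cDNA in the HIF-1α re-expressing cells and carried HIF-2α cDNA in the HIF-2α overexpressing cells. Endogenous HIF-2α is present in all pools, since the line lacks the VHL protein that would target it for degradation. RNA-seq comprised 3 libraries per pool, numbered 1 to 3, and ChIP-seq comprised 7 lists of peaks, each from 1 library: HIF-1β and HIF-2α in every pool, and HIF-1α in the HIF-1α re-expressing cells. The labels do not say that numbered libraries came from separate cultures or transductions, so p-values measure the spread between these libraries, which may be partly technical.

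Library totals ranged from 27852754 to 54287621 counts. All 5 markers examined for the renal epithelial carcinoma line, among them *PAX8* and *VIM*, were present in every pool. Their summed level was 4275 to 6581 CPM (counts scaled to library size by TMM factors). Most of that sum was *VIM*, at 3963 to 5671 CPM, so it does not measure epithelial identity. *PAX8* was at 175 to 364 CPM, *KRT18* at 84.9 to 212, *CDH6* at 14.0 to 457 and *PAX2* at 8.53 to 26.7. The 3 endothelial markers summed to at most 0.894 CPM, the 2 leukocyte markers to at most 0.0853 CPM and the 3 fibroblast markers to 1.73 to 18.9 CPM. *HIF1A*, the gene of HIF-1α, was measured at 30.4, 36.7 and 152 CPM in control libraries 1 to 3, at 171, 1682 and 473 CPM in the HIF-1α re-expressing cells and at 15.3, 30.4 and 17.5 CPM in the HIF-2α overexpressing cells. By the study's account, the endogenous transcripts of this gene in the line are truncated and the re-expressed one is full-length, so a gene-level count does not measure the same transcript in the different pools. *EPAS1*, the gene of HIF-2α, was measured at 456, 224 and 162 CPM in the control cells, 575, 627 and 397 CPM in the HIF-1α re-expressing cells and 946, 3244 and 880 CPM in the HIF-2α overexpressing cells.

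As background, urokinase and tissue-type plasminogen activator cleave plasminogen to plasmin, a broad protease that dissolves fibrin and degrades matrix. Urokinase is held at the cell surface by uPAR, where it acts around migrating cells, while tissue-type activator works mainly on fibrin. Serpins trap these proteases in stable complexes, and receptors of the LDL receptor family take the complexes up into the cell. HIF is a dimer of HIF-1α or HIF-2α with HIF-1β that binds hypoxia response elements (HREs), and tumors of the kidney are among the tissues in which urokinase and uPAR have long been studied.

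None of the 5 genes passed the test in any comparison of the pools. With the cell pool as the sole term, edgeR's quasi-likelihood test with Benjamini-Hochberg adjustment over all 14225 genes called 0 of 5 in each of the 3 comparisons. The smallest adjusted p of a member was 0.357 for HIF-1α re-expression against control, 0.945 for HIF-2α overexpression against control and 0.470 for HIF-1α re-expression against HIF-2α overexpression. The background of called genes was also low in this fit: 0% and 0% of all genes in the comparisons with the control cells and 0.0492% between the other pools. At an unadjusted p under 0.05, 1586 genes were higher and 1171 lower with HIF-1α re-expression, 476 were higher and 362 lower with HIF-2α overexpression, and none of them was a member. DESeq2 called 736 and 65 genes in these comparisons and 650 in that between the HIF pools, and again 0 of 5 members. In these bulk libraries, fewer cells expressing a gene and less RNA per cell cannot be told apart.

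The replicate numbers paired the libraries across the pools, as described with the processing, so the test was repeated with that number added as a block. The blocked fit called 7.96% of genes with HIF-1α re-expression, 0.267% with HIF-2α overexpression and 5.93% between the HIF pools, and still 0 of 5 members in each. At an unadjusted p under 0.05 in the blocked fit, 2653 of 14225 genes were higher and 2068 lower with HIF-1α re-expression, *PLAT* among the higher. Between the HIF pools 2073 were higher and 1377 lower in the HIF-1α re-expressing cells, *SERPINE2* among the higher. With HIF-2α overexpression 1094 were higher and 973 lower, and no member was among them. The block was chosen from these same counts, so an F test of its terms is a description and no separate check of the pairing. Within this fit, the replicate number itself was past the threshold for 15.4% of genes (F test of the block terms, adjusted p under 0.05). *PLAU* was among them (adjusted p = 0.0372, edgeR), whereas *PLAUR* was just outside (adjusted p = 0.0548). In the plot of levels by library, replicate 2 is the lowest library of *PLAU* in every pool and replicate 1 the highest of *PLAUR* in every pool.

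**Figure D1:**
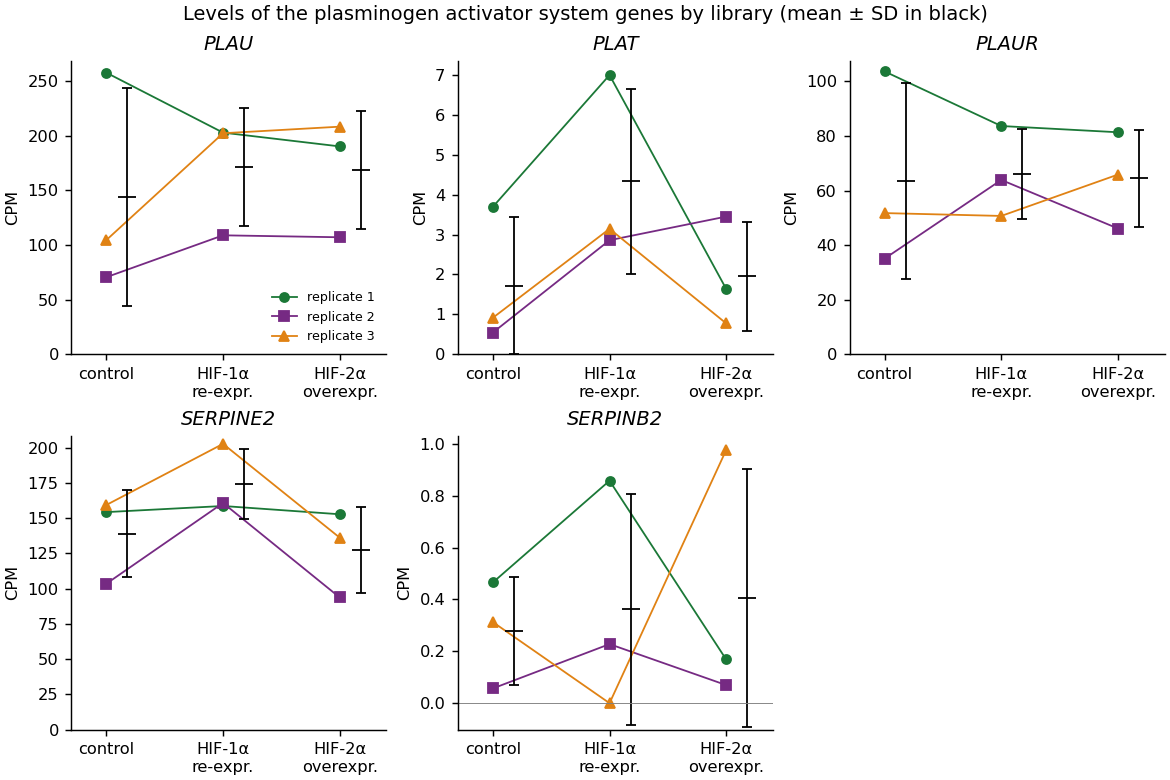
Level of each member (CPM, vertical axis from 0 or, where the SD reaches below 0, from just under 0) in each of the 9 libraries, by pool on the horizontal axis, with lines joining libraries of the same replicate number and the mean ± SD (n = 3) in black. *PLAU* ranges from 70.7 to 258 CPM within the control cells alone, and the pools overlap for every member except *SERPINE2* between the HIF pools.

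Of the activators, *PLAU* (ENSG00000122861.16, chr10:75668935-75677254, plus strand, GRCh37) was the abundant one. It was measured at 258, 70.7 and 105 CPM in control replicates 1 to 3, at 203, 109 and 202 CPM in the HIF-1α re-expressing cells and at 190, 107 and 208 CPM in the HIF-2α overexpressing cells. The control cells held both the highest and the lowest library, so that the groups overlapped entirely. The log2 fold change was 0.25 (SE 0.47, 95% interval -0.79 to 1.29) with HIF-1α re-expression and 0.22 (SE 0.47, 95% interval -0.82 to 1.26) with HIF-2α overexpression. The HIF pools were nearly level with one another within each replicate number, with ratios of 1.07, 1.02 and 0.971. Against the control cells, replicates 2 and 3 were higher by 1.54-fold and 1.93-fold with HIF-1α re-expression, and replicate 1 was lower, at 0.787-fold. Without control replicate 1, the fit with the block gave a log2 fold change of 0.79 (adjusted p = 0.0334, edgeR) with HIF-1α re-expression. With HIF-2α overexpression it gave 0.78 (adjusted p = 0.0932, edgeR). Of 9 blocked fits that each left out 1 library, only 1 was past the threshold for *PLAU* with HIF-1α re-expression. Without control replicate 2 or 3, that log2 fold change was 0.22 or 0.086 (adjusted p = 0.712 or 0.884, edgeR with block). Without the block, leaving out control replicate 1 called no member.

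*PLAU* was the one member with a HIF-α peak within 10 kb of a start site. HIF-2α in the overexpressing cells had a peak at chr10:75667095-75669594, with its midpoint 0.591 kb from the nearest of 5 annotated start sites, and HIF-1β in the control cells had one at chr10:75666744-75669243, at 0.942 kb. Each peak is a window of 2500 bp, and these share 2149 bp. From the start site of the canonical transcript their midpoints lay at -2546 bp (HIF-2α) and -2897 bp (HIF-1β), and neither window covered that site. A further HIF-1β peak of the control cells lay 9.63 kb away and a HIF-2α peak of the overexpressing cells 21.3 kb away. The nearest peak was 136 kb away for HIF-2α in the control and HIF-1α re-expressing pools and for HIF-1β in the overexpressing pool. The HIF-1α and HIF-1β peaks of the HIF-1α re-expressing cells at 34.7 kb had their midpoints within 0.007 kb of a start site of *CAMK2G* and were counted under *PLAU* by distance alone.

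The shared stretch held 6 matches to the HRE core (ACGTG or GCGTG on either strand) and 2 to the AP-1 motif (TGAGTCA or TGACTCA on either strand). Such matches are common in windows of this length. The HRE core was found in 94.0% and AP-1 in 63.3% of the whole windows of HIF-2α in the overexpressing cells, and in 98.5% and 52.6% of those of HIF-1β in the control cells. Both AP-1 matches with 40 bases to either side are printed, since they lie under both of the peaks nearest to *PLAU*. They are given on the plus strand of GRCh37, with the match in capitals.
PLAU upstream AP-1 match, chr10:75667736-75667822: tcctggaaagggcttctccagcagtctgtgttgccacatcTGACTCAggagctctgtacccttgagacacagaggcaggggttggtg
PLAU AP-1 match nearer the canonical start, chr10:75669152-75669238: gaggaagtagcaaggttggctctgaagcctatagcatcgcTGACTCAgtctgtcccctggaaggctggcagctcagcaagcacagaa

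The AP-1 matches lie at -3114 and -1698 bp from the start site of the canonical transcript. The central 300 bp of the HIF-2α peak held 1 HRE core match and no AP-1 match, and that of the HIF-1β peak of the control cells held no match to either motif.

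*PLAT* (ENSG00000104368.19, chromosome 8, minus strand) was expressed at a far lower level. It was measured at 3.70, 0.541 and 0.912 CPM in the control cells, at 7.01, 2.86 and 3.15 CPM in the HIF-1α re-expressing cells and at 1.64, 3.45 and 0.771 CPM in the HIF-2α overexpressing cells, from 19 to 286 counts per library. Within each replicate number the HIF-1α re-expressing cells were higher than the control cells, by 1.89-fold, 5.29-fold and 3.45-fold, a pattern that 29.0% of all genes showed. The groups overlapped, because control replicate 1 exceeded HIF-1α replicates 2 and 3. The log2 fold change was 1.33 (SE 0.77, 95% interval -0.38 to 3.04, adjusted p = 0.357) and, with the block, 1.51 (SE 0.61, 95% interval 0.13 to 2.90, adjusted p = 0.125). With HIF-2α overexpression it was 0.18 (SE 0.76, 95% interval -1.52 to 1.88), and replicate 2 went the other way from replicates 1 and 3. Without HIF-2α replicate 2, the blocked edgeR fit placed *PLAT* past the threshold in the HIF-1α re-expressing cells. It was higher by 1.61 against control (adjusted p = 0.0461) and by 2.21 against the HIF-2α overexpressing cells (adjusted p = 0.0333). In each of these comparisons only 1 of 9 blocked fits that left out 1 library passed. The library left out is not part of the comparison with the control cells. The sole peak within 50 kb of a *PLAT* start site was that of HIF-1β in the HIF-1α re-expressing cells, at 27.7 kb, and its midpoint lay 0.002 kb from a start site of *AP3M2*.

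The receptor gene *PLAUR* (ENSG00000011422.12, chr19:44150247-44174699, minus strand) was measured at 104, 35.1 and 51.8 CPM in the control cells, at 83.7, 63.9 and 50.7 CPM in the HIF-1α re-expressing cells and at 81.4, 46.1 and 65.9 CPM in the HIF-2α overexpressing cells. The pool means were 63.5, 66.1 and 64.5 CPM, and the groups overlapped in every comparison. The log2 fold change was 0.06 (SE 0.38, 95% interval -0.80 to 0.91) with HIF-1α re-expression and 0.02 (SE 0.38, 95% interval -0.83 to 0.88) with HIF-2α overexpression. The block narrowed these intervals to -0.37 to 0.71 and to -0.42 to 0.65. On a linear scale the blocked interval with HIF-1α re-expression was 0.775-fold to 1.64-fold. Replicate 1 was the highest library of each pool, as it was for *PLAU* in the control and HIF-1α re-expressing cells.

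At *PLAUR*, HIF-1β of the control cells had a peak at chr19:44172743-44175242, with its midpoint 0.301 kb from the nearest of 16 annotated start sites, in an intron of the gene. It was the only peak of the 7 lists within 100 kb, and the nearest peak of a HIF-α subunit was 294 kb away. The window held 7 HRE core and 2 AP-1 matches, 1 of the former in its central 300 bp, where 57.2% of the HIF-1β peaks of the control cells had at least 1.

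Of the inhibitors, *SERPINE2* (ENSG00000135919.14, chr2:224839762-224904035, minus strand) encodes protease nexin-1, which inhibits thrombin, urokinase and plasmin at the cell surface. It was measured at 154, 104 and 159 CPM in the control cells, at 159, 161 and 203 CPM in the HIF-1α re-expressing cells and at 153, 93.8 and 136 CPM in the HIF-2α overexpressing cells. The HIF-1α re-expressing libraries were higher than their control partners by 1.03-fold, 1.55-fold and 1.27-fold, a direction that 29.0% of genes kept in all 3 pairs. The HIF-2α overexpressing libraries were at 0.990, 0.906 and 0.854 of theirs, and 19.4% of genes were lower in all 3 of these pairs. All 3 HIF-1α libraries were above all 3 HIF-2α libraries, which 10.4% of all genes showed. The log2 fold change between the HIF pools was 0.45 (SE 0.26, 95% interval -0.12 to 1.02, adjusted p = 0.470) and, with the block, 0.47 (SE 0.18, 95% interval 0.06 to 0.89, adjusted p = 0.159, edgeR). Against the control cells it was 0.32 (SE 0.26) with HIF-1α re-expression and -0.12 (SE 0.26) with HIF-2α overexpression. Of the 5 members, *SERPINE2* had the narrowest intervals.

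HIF-1β of the HIF-1α re-expressing cells had a peak over the *SERPINE2* start site, at chr2:224902560-224905059 with its midpoint 0.194 kb into the gene. The HIF-1α list had no peak there. Its nearest lay 37.6 kb from a start site of *SERPINE2*, and 0.08 kb from one of ENSG00000286239, and the HIF-1β list of the same cells had a peak in nearly the same position. HIF-2α of the overexpressing cells and HIF-1β of the control cells had peaks at 40.8 and 41.0 kb. These 4 lie beyond the 3′ end of the gene from its canonical start site, at 94.1 to 97.5 kb, which is the distance drawn in the map of peaks. The start-site window held 5 HRE core and no AP-1 matches. Of the former, 4 form 2 palindromes, CACGTG, that match on both strands. The palindrome nearer the gene lies 287 bp before the canonical start site, in the printed 300 bp that end 50 bp before it (minus strand, palindrome in capitals). Of 19881 protein-coding promoters, 54.1% held an HRE core match in the same stretch.
SERPINE2 promoter, chr2:224904054-224904353: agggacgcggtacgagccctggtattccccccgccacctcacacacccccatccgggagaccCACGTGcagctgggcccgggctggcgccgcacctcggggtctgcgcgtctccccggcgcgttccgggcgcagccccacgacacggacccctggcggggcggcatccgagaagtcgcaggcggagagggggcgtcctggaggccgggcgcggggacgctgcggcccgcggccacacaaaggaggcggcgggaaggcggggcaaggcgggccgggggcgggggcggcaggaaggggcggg

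*SERPINB2* (ENSG00000197632.9, chr18:61538926-61571122, plus strand) encodes PAI-2, an inhibitor of urokinase that is largely retained inside the cell. It was counted 18, 2 and 12 times in the control libraries, 35, 9 and 0 times in the HIF-1α re-expressing libraries and 7, 2 and 38 times in the HIF-2α overexpressing libraries, at most 0.976 CPM. The highest and the lowest library were both replicate 3, in different pools. The log2 fold change was 0.35 (SE 1.28, 95% interval -2.51 to 3.21) with HIF-1α re-expression and 0.55 (SE 1.28, 95% interval -2.31 to 3.4) with HIF-2α overexpression, so that changes of several fold in either direction lay within the intervals. No list had a peak within 100 kb of a *SERPINB2* start site. The nearest, of HIF-1α, lay 503 kb away.

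**Figure D2:**
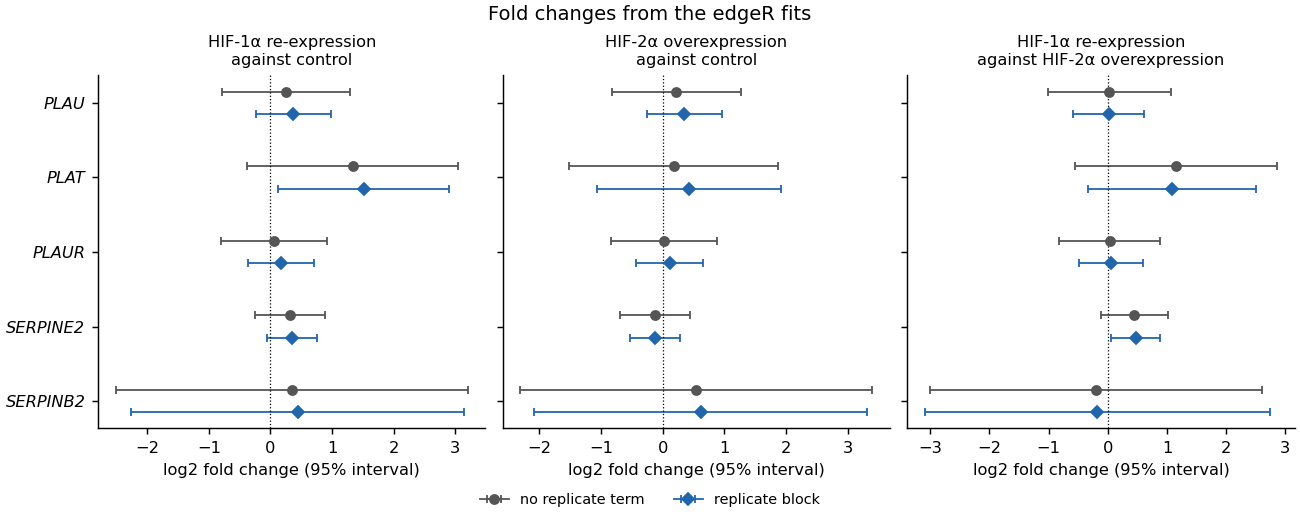
Log2 fold change (horizontal axis) with its 95% interval for the members in the 3 comparisons, from the edgeR fit with the pool alone (grey circles) and from that with the replicate block (blue diamonds), n = 3 libraries per pool. The intervals of *PLAU*, *PLAUR* and *SERPINB2* include 0 in each panel, and those of *SERPINB2* are the widest.

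Of the 5 members, 4 had a peak of any list within 50 kb of a start site, where 57.7% of 20654 placed genes had one, and 3 had one within 10 kb, where 39.0% had one. By list, a peak within 50 kb was found for 35.2% of genes with HIF-1β and 9.40% with HIF-2α in the control cells. It was found for 39.2% with HIF-1α, 44% with HIF-1β and 8.0% with HIF-2α in the HIF-1α re-expressing cells, and for 23.5% with HIF-1β and 22.5% with HIF-2α in the HIF-2α overexpressing cells. With 5 members, nothing was read from these shares. With 1 library per list and no signal in the lists, a gene without a listed peak was not thereby shown to be unbound, and no peak was tested between pools.

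**Figure D3:**
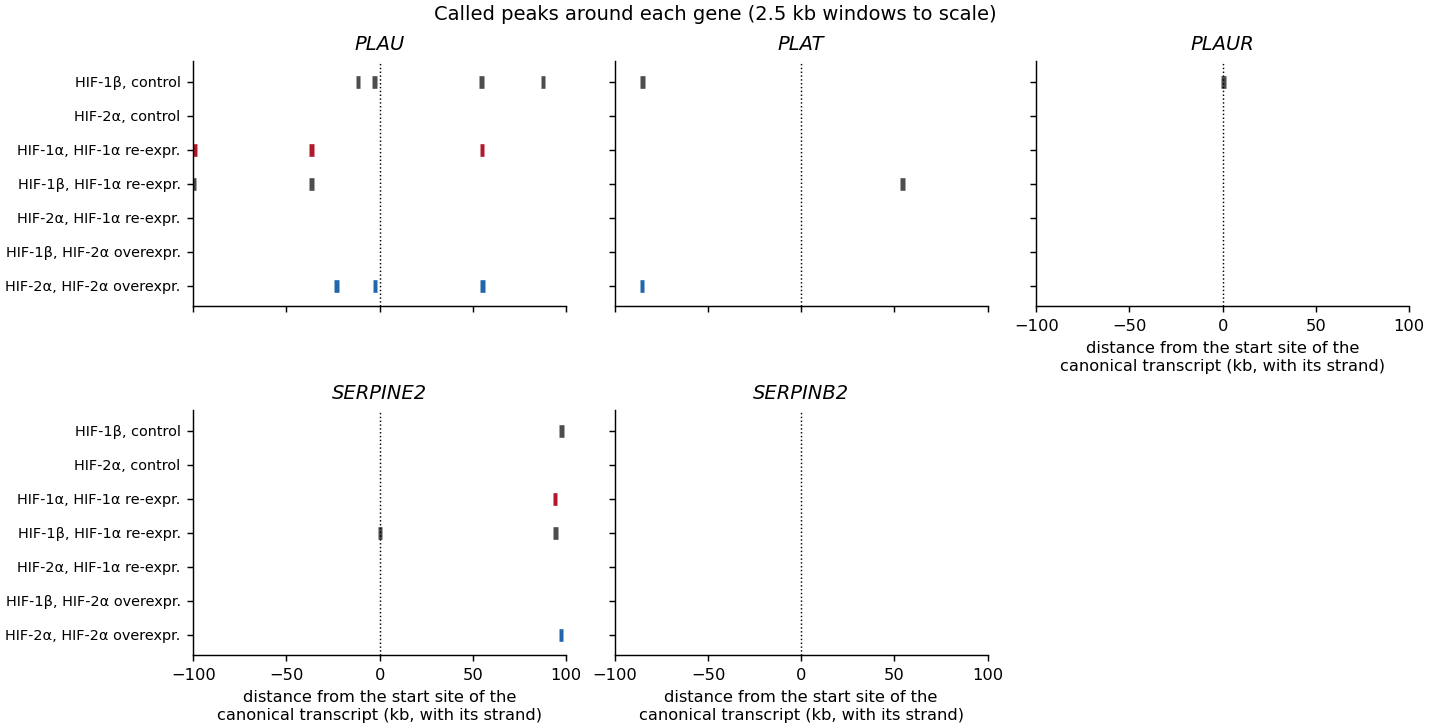
Peaks of the 7 lists (rows) around the members, by distance from the start site of the canonical transcript in kb along the direction of transcription, each drawn to scale as its 2.5 kb window. *PLAU*, *PLAUR* and *SERPINE2* each have start-site peaks in at most 2 lists, and *PLAT* and *SERPINB2* have none there. The start-site peaks of *PLAU* are near another annotated start site and stand at -2.55 and -2.90 kb on this axis.

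The order of the levels was compared per kilobase of the canonical transcript. *PLAU* ranged from 30.2 to 110 CPM per kb, *SERPINE2* from 42.1 to 91.1 and *PLAUR* from 25.7 to 75.8, and these 3 changed places between libraries, so that their order did not exceed the spread. *PLAT*, at 0.177 to 2.29 CPM per kb, and *SERPINB2*, at 0 to 0.512, were lowest in every library and changed places in HIF-2α replicate 3. Ratios within a library were compared between pools by permutation of the libraries, without the pairing by replicate number. With 3 against 3 libraries none of these tests could fall under 0.05. The ratio of *SERPINE2* to *PLAU* was 0.631, 1.54 and 1.60 in the control cells, 0.824, 1.55 and 1.06 with HIF-1α re-expression and 0.846, 0.921 and 0.689 with HIF-2α overexpression (exact two-sided permutation p = 0.9 and 0.4 against the control cells, adjusted 1 and 0.8 over 6 ratio tests). The ratio of *PLAU* to its receptor *PLAUR* stayed between 0.995 and 2.33 in all 9 libraries (exact permutation p = 0.7 and 0.3, adjusted 1 and 0.8). The ratio of *PLAU* to *PLAT* uses the low *PLAT* counts described above, 19 and 35 in control libraries 2 and 3, and no background of other ratios was computed. It was 91.0, 171 and 149.95 in the control cells and 37.8, 49.8 and 84.0 with HIF-1α re-expression, without overlap, a log2 difference of -1.29 (exact permutation p = 0.1, the smallest that 3 against 3 allows, adjusted 0.6). With HIF-2α overexpression it was 152, 40.5 and 353, on both sides of the control range, a log2 difference of -0.03 (exact permutation p = 1).

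**Figure D4:**
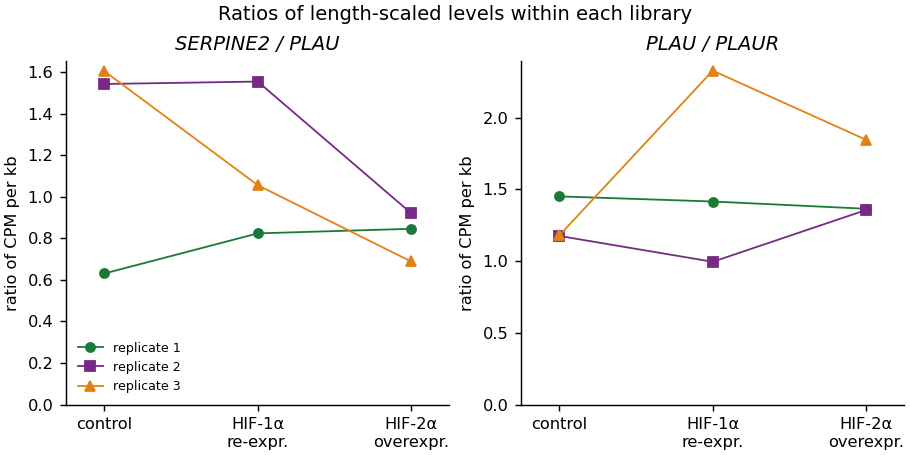
Ratios of levels per kb of canonical transcript within each library (vertical axes from 0) by pool, with lines joining libraries of the same replicate number. The ratio of *SERPINE2* to *PLAU* is 0.631 to 1.60 in the control cells, and both ratios overlap between the pools.

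The wider pathway was followed in a list of 37 genes, of which 29 were tested. The 8 not tested for low counts included *PLG*, which encodes plasminogen itself, at 1 to 18 counts per library. Without the block, 0 of 29 were called in any comparison. With the block, 4 rose and 0 fell with HIF-1α re-expression, where 5.41% of all genes were called higher and 2.55% lower. With HIF-2α overexpression 1 rose and 0 fell, where 0.112% of all genes were called higher and 0.155% lower. Between the HIF pools 3 were higher and 1 lower in the HIF-1α re-expressing cells, where 4.54% and 1.38% of all genes were. The higher genes were *SORL1*, *SERPING1* and *VLDLR*, and the lower one *F3*. The median log2 fold change of the list without the block was 0.24, 0.09 and 0.22 in the 3 comparisons, and that of all genes 0.04, -0.02 and 0.02. Of the renal epithelial markers, *KRT18* fell by 0.86 on the log2 scale with HIF-1α re-expression (adjusted p = 0.0405, edgeR with block) and *CDH6* was higher in these cells than in the HIF-2α overexpressing cells, by 2.04 (adjusted p = 0.0172). These markers were named after their values were seen, and their part in the results was not tested.

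Among the 9 uptake receptors and uPAR partners, 7 were tested and 3 rose with HIF-1α re-expression. *LRP1* encodes the large endocytic receptor that clears complexes of urokinase and tissue-type activator with their serpins. It was measured at 142, 57.2 and 70.5 CPM in the control cells, 224, 563 and 481 CPM with HIF-1α and 173, 214 and 197 CPM with HIF-2α. All HIF-1α libraries were above all control libraries, as for 12.9% of all genes, and so were all HIF-2α libraries, as for 6.0%. Its log2 fold change with HIF-1α re-expression was 2.23 (SE 0.44, adjusted p = 0.0358, edgeR with block), and with HIF-2α overexpression it was 1.11 (adjusted p = 0.291). *VLDLR*, a related receptor for the same complexes, was measured at 71.6, 50.9 and 52.4 CPM in the control cells, 96.3, 184 and 157 CPM with HIF-1α and 61.8, 77.1 and 60.2 CPM with HIF-2α. Its log2 fold change with HIF-1α re-expression was 1.29 (SE 0.26, adjusted p = 0.0358). *SORL1*, a sorting receptor that also binds urokinase, was measured at 3.70, 1.85 and 1.82 CPM in the control cells, 16.9, 19 and 14.5 CPM with HIF-1α and 2.48, 5.09 and 1.75 CPM with HIF-2α. It rose by 2.79 on the log2 scale (SE 0.38, adjusted p = 0.0264) and was also higher than in the HIF-2α overexpressing cells, by 2.52 (adjusted p = 0.0081). Control replicate 1 was the highest control library of all 3 genes, and the ratio to the control partner was lowest in replicate 1.

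For each of *LRP1*, *VLDLR* and *SORL1*, the call against the control cells was kept in 4 of 9 blocked fits that each left out 1 library and lost without control replicate 2 or 3, HIF-1α replicate 2 or 3 or HIF-2α replicate 1, with an adjusted p of at most 0.197. The log2 fold changes in these 9 fits were 1.76 to 2.87 for *LRP1*, 1.03 to 1.60 for *VLDLR* and 2.4 to 3.20 for *SORL1*. In 4 of the 5 fits that lost the calls, edgeR called 0 genes of the whole table, with 1678 to 2457 genes higher and 1159 to 2113 lower at an unadjusted p under 0.05. DESeq2 without a block called all 3, and the fit with the pool alone called none (adjusted p = 0.149 each). For the genes of the list, peaks were assigned by distance alone, and nearer start sites of other genes were not looked up. At *LRP1* all 7 lists had a peak within 50 kb of a start site, with HIF-1α at 0.37 kb, HIF-1β of the control cells at 1.1 kb and the others at 13.1 to 31.5 kb. At *VLDLR* HIF-1α lay at 0.093 kb, overexpressed HIF-2α at 0.091 kb and HIF-1β at 0.004 to 0.057 kb in all 3 pools, while HIF-2α of the other pools had none within 50 kb. *SORL1* had HIF-1β peaks at 5.65 kb in the control cells and at 5.52 kb in the HIF-2α overexpressing cells, and none of HIF-1α nearer than 905 kb.

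Of the 8 other inhibitors, 6 were tested and 1 was called: *SERPING1*, which encodes C1 inhibitor, with 0, 2 and 12 counts in the control libraries, 28, 143 and 132 in the HIF-1α re-expressing libraries and 0, 0 and 21 in the HIF-2α overexpressing libraries. All HIF-1α libraries were above all control libraries, as for 12.9% of all genes, and above all HIF-2α libraries, as for 10.4%. The lowest HIF-1α library, at 0.686 CPM, was close to the highest HIF-2α library, at 0.540 CPM. The fitted log2 fold change of 4.77 (SE 0.98, adjusted p = 0.0364, edgeR with block) depends on the prior count at these low counts, was past the threshold in 4 of 9 fits that left out 1 library, at 3.65 to 7.03 in all 9, and was not called by DESeq2 (adjusted p = 0.238). Of 7 genes that start or control coagulation at the cell surface, *F3*, which encodes tissue factor, was called. It was measured at 78.3, 86.7 and 79.2 CPM in the control cells, 74.2, 225 and 55.0 CPM with HIF-1α and 397, 506 and 558 CPM with HIF-2α. It rose by 2.58 on the log2 scale with HIF-2α overexpression (SE 0.38, adjusted p = 0.0372 with and 0.466 without the block, edgeR). That call was kept in 3 of 9 fits that left out 1 library, with a log2 fold change of 2.22 to 2.84. *F3* had peaks at its start site in the HIF-1β list of the control cells and in the HIF-1α and HIF-1β lists of the HIF-1α re-expressing cells, and none of overexpressed HIF-2α nearer than 81.2 kb. None of the 4 tested plasminogen binding proteins, the 4 tested proteases that activate pro-urokinase or the 1 tested growth factor precursor was called. Without the block, the median log2 fold change of the plasminogen binding proteins was -0.41 with HIF-1α re-expression and -0.46 with HIF-2α overexpression. That of the 7 tested uptake receptors and uPAR partners was 1.11 and 0.39.

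**Figure D5:**
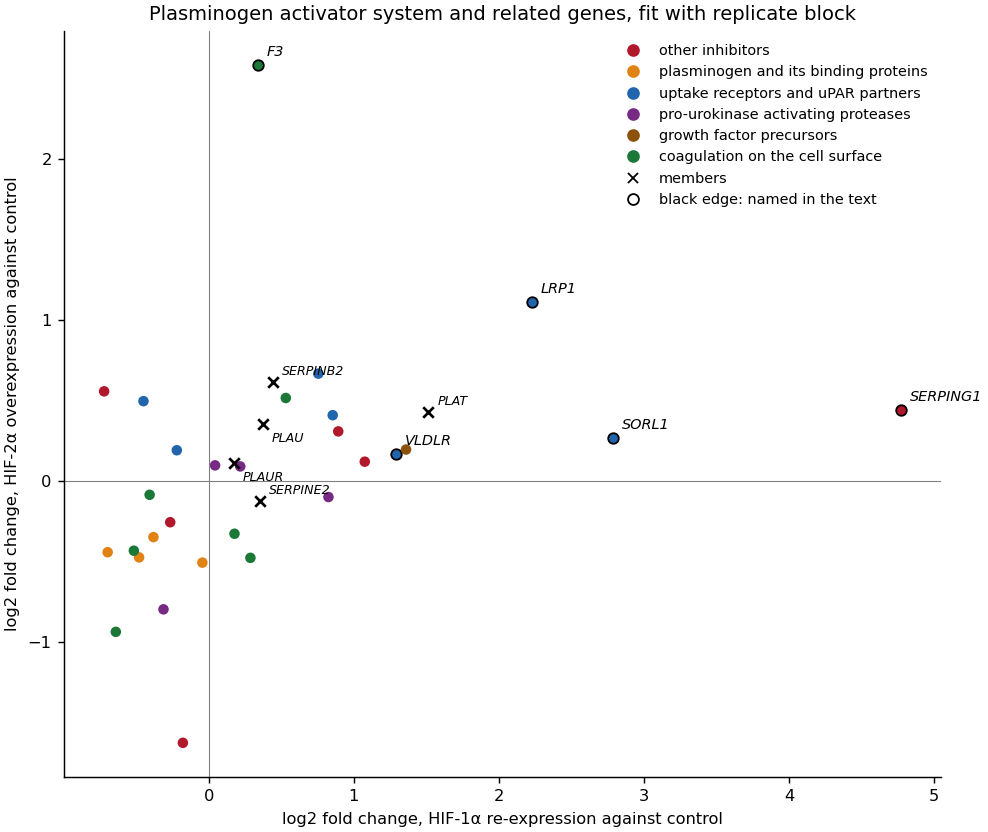
Log2 fold change of the 29 tested genes of the pathway list (circles, coloured by role) and of the 5 members (crosses) with HIF-1α re-expression (horizontal axis) and HIF-2α overexpression (vertical axis), edgeR with the replicate block; both axes share the 3 control libraries. *F3* stands at 2.58 on the vertical axis, *SERPING1*, *SORL1*, *LRP1* and *VLDLR* at 1.29 to 4.77 on the horizontal axis, and the members lie within 1.51 of 0 on both.

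The genes most like each member across the 9 libraries were sought by the root mean square difference of log2 CPM, each gene centred on its own mean, among genes of at least 10 CPM on average. For *PLAU* these were *C1QTNF1* (0.15), *ANTXR2* (0.18) and *DYRK3* (0.24), where *PLAU* itself varied by 0.60 around its mean and the median over 9513 genes was 0.69. For *PLAUR* they were *RILPL1* (0.17), *ERLIN2* (0.20) and *HLCS* (0.20), and for *SERPINE2* they were *RNF215* (0.11), *NPRL2* (0.13) and *ACP6* (0.14). The nearest genes to *PLAT*, which were *MAP2*, *P2RY2* and *CDCP1*, differed from it by 0.57 to 0.59, and those to *SERPINB2*, which were *SPHK1*, *SLC30A1* and *LACC1*, by 0.87 to 0.90. No pair of members was among these. *PLAT* and *SERPINB2*, with means of 2.67 and 0.348 CPM, were below the limit of 10 CPM and could not be named for another member.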

How the data were processed

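The deposited RNA-seq table holds raw counts by gene symbol, 1 column per library, not normalized. Per the authors' methods, reads were aligned to GRCh37 with TopHat2 2.0.8b and Bowtie 1.0.0, and uniquely mapped reads were counted on UCSC genes with HTSeq 0.5.4p3 in its strict intersection mode. The kit was directional, but the strand setting of the counting was not given in the sources used here. For ChIP-seq the deposited lists hold positions alone, with no score. Reads were aligned with BWA 0.7.5a-r405 and peaks called by both T-PIC and MACS were then filtered by the authors on the count under the peak, against random background regions.

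Counts were fitted in edgeR 4.0.16 (R 4.3.3) with TMM factors, all 9 libraries in 1 quasi-likelihood fit, the pool as the sole term and a threshold of 0.05 on the adjusted p. DESeq2 1.42.0 and other settings were alternatives. Pairing was checked on deviations from the pool means. Same-numbered libraries of different pools correlated at 0.348 to 0.652 (9 pairs) and others at -0.478 to 0.0281 (18 pairs), so the number was treated as a pairing. Deviations within a pool sum to 0, so positive values for the same number bring negative ones for the others. Replicate libraries differed far beyond counting noise (chi-square per degree of freedom of at least 157). Scripts were tested on simulated data.

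Symbols were placed by the same name in GENCODE lifted to GRCh37 (20654 of 23441). A peak was near a gene if its midpoint lay within 50 kb of any annotated start site. Sequences were read from GRCh37 with pysam 0.24.0, and levels per kb used the canonical transcript. The members, the pathway list and the rules were chosen with earlier results of these data known. The genes of the list named with values are those past the threshold against the control cells in the fit with or without the block. A further gene of the list and some sequences are not reported here. Input libraries were not analysed here.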

Additional observations from a re-analysis of the deposited data

How the results depend on the processing

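The replicate block, DESeq2, DESeq2 with the block, DESeq2's size factors in edgeR, no filter on low counts and a fit of only the 6 libraries compared each called 0 members in all 3 comparisons. DESeq2 with the block came closest, with a smallest adjusted p of a member of 0.0526 for HIF-1α re-expression against control, just outside the threshold. Between the HIF pools, the fit of only the 6 libraries tested 4 of the 5 members, without *SERPINB2*. The block moved the number of called genes of the pathway list from 0 to 4 with HIF-1α re-expression, 1 with HIF-2α overexpression and 4 between the HIF pools, and of all genes to 1132, 38 and 843. DESeq2 gave 3, 1 and 3 genes of the list and 736, 65 and 650 genes in all, and DESeq2 with the replicate block gave 7, 2 and 7, and 2970, 487 and 1798. Without the filter, 1 gene of the list was called between the HIF pools, with 82 in all, and 1 gene in all with HIF-2α overexpression. With 6 libraries, 1 gene of the list and 2 in all were called with HIF-2α overexpression, and 0 between the HIF pools.

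Fits that left out 1 library, with or without the block (those with it were chosen after seeing the data), called 0 to 1 members with HIF-1α re-expression, 0 with HIF-2α overexpression and 0 to 1 between the HIF pools. The called members were *PLAU* without control replicate 1 and *PLAT* without HIF-2α replicate 2, 3 calls in all. The list had 0 to 6, 0 to 1 and 0 to 5 called genes, and all genes 0 to 2408, 0 to 94 and 0 to 890. The log2 fold changes that turned direction ranged, with HIF-1α re-expression, from -0.093 to 0.96 for *PLAU*, -0.24 to 0.60 for *PLAUR* and -1.36 to 1.65 for *SERPINB2*. With HIF-2α overexpression they ranged from -0.11 to 0.94 for *PLAU*, -0.60 to 1.42 for *PLAT*, -0.27 to 0.57 for *PLAUR*, -0.30 to 0.049 for *SERPINE2* and -1.71 to 1.64 for *SERPINB2*. Between the HIF pools they ranged from -0.24 to 0.24 for *PLAU*, -0.27 to 0.22 for *PLAUR* and -1.90 to 1.63 for *SERPINB2*. Between the HIF pools *PLAU* also turned to -0.0082 with DESeq2 and the replicate block and to -0.0015 without the filter, and *SERPINB2* to 0.14 with DESeq2 and the block. None of these was past the threshold in a reversed direction, and the cause was not tested.

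With peaks within 10 kb in place of 50 kb, the number of lists with a peak was 2 for *PLAU*, 0 for *PLAT* and 1 for *SERPINE2*. Within 100 kb it was 3 for *PLAT*, and with the 5′ end of the gene alone 0 for *PLAT* and 1 for *SERPINE2*. *SERPINB2* had at most 38 counts and *PLAT* 19 to 286 counts per library, and both also varied widely between libraries of the same pool. The part of depth in their wide intervals was not tested.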
